A study of Mus musculus with 6 samples.

Results

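The wobble uridine tRNA modification enzymes are the proteins that modify the uridine at the first anticodon position of cytosolic tRNAs. The 8 genes followed here were Ctu1, Ctu2, Urm1, Mocs3, Elp2, Elp3, Elp4 and Alkbh8, out of 23441 distinct genes in the count table. They were chosen by name for their function, with the loss of Ctu1 reads in these libraries already known. Their differences between genotypes are therefore given as a description without a test. All 8 had rows in the table, and all 8 were among the 14609 genes that passed a filter on low counts, with no fewer than 75 reads of a member in any library.

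Polyadenylated RNA was sequenced from whole dissected mouse retinae at embryonic day 14.5. The 3 CKO libraries came from mice that carried 1 allele of a Cre::GFP transgene (+/tg) driven in retinal progenitors and were Ronin flox/flox. The 3 control libraries came from mice that were Ronin flox/flox without the transgene. Ronin is the zinc finger transcription factor encoded by Thap11. Cells outside the progenitor lineage keep Ronin, and since the controls lack Cre and GFP, effects of the transgene and of the loss of Ronin cannot be told apart. Per the labels, the strain background of both genotypes was a mixture of C57/B6, SJL/B6, 129/Sv and FVB. No label ties a replicate to its own animal or litter, so each p-value reflects only the variation among these 6 libraries, and part of that may be technical.

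Tasks are divided among the enzymes in steps. The Elongator complex, whose catalytic subunit is Elp3, starts a carboxymethyl side chain on the wobble uridine. Alkbh8 completes that side chain to its methyl ester. In tRNAs for lysine, glutamine and glutamate the same base also receives a sulfur in place of an oxygen: Mocs3 activates the ubiquitin-like protein Urm1 and loads it with sulfur, and the Ctu1-Ctu2 complex transfers the sulfur to the tRNA. These marks help the ribosome read codons that end in A.

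Library totals lay between 23721052 and 28504391 reads. Levels were scaled to library totals corrected by TMM and are given as CPM (counts per 1e+06 reads), which do not account for gene length, so levels of different genes are not compared. Thap11, the targeted gene, had 11.2, 10.9 and 6.38 CPM in CKO replicates 1 to 3, against 68.3, 82.0 and 71.6 CPM in control replicates 1 to 3. The spread was unequal between genotypes, with a median SD of log2 CPM per gene of 0.098 in the CKO and 0.326 in the controls, where replicate 2 stood apart. Markers of retinal progenitors were abundant in every library, with Ccnd1 at 3613 ± 275 CPM in the CKO and 4089 ± 191 CPM in the controls (SD, n = 3 each). All 9 progenitor genes and all 8 early neuron genes on the lists were detected. The neuron list was led by Tubb3, at 1052 ± 30.2 CPM in the CKO and 981 ± 98.7 CPM in the controls. Lens genes were unequal between the genotypes: the summed level of 17 lens markers was 8265, 64.3 and 538 CPM in CKO replicates 1 to 3, against 17.7, 11.9 and 12.1 CPM in control replicates 1 to 3. All 12 lens genes that were tested had positive log2 fold changes. Some of them, such as Cryba2, Lim2 and Bfsp2, passed the filter on low counts only through the CKO libraries. For these the positive sign was largely set by the filter, and the counts of lens genes below include them. Of the 17, 2 (Crybb2 and Lgsn) had 0 reads in every control, but also no more than 4 reads in any CKO library, and were not tested. Of the 12 tested, edgeR called 0 and limma-voom 0, 11 had an unadjusted p under 0.05 and DESeq2 called 9.

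EdgeR called 0 genes of the blood vessel and pigment epithelium lists. Blood vessel markers summed to 276, 255 and 275 CPM in CKO replicates 1 to 3, against 291, 350 and 343 CPM in control replicates 1 to 3. Most of each sum was Kdr alone, at 237 ± 5.78 CPM in the CKO and 283 ± 31.6 CPM in the controls (SD, n = 3 each). The sums therefore mainly follow that gene and not the list as a whole. Of the 10 vessel genes tested, 8 had negative log2 fold changes (median over the list -0.44), 5 did not overlap between genotypes, 2 had an unadjusted p under 0.05, limma-voom called 0 and DESeq2 called 1, Flt1, a VEGF receptor gene. Pigment epithelium markers summed to 39.9, 36.6 and 34.2 CPM in CKO replicates 1 to 3, against 80.8, 45.9 and 39.0 CPM in control replicates 1 to 3. All 6 pigment epithelium genes tested had negative log2 fold changes (median -0.60), 2 did not overlap, 2 had an unadjusted p under 0.05, and DESeq2 and limma-voom called 0. Over all genes tested, 12.6% did not overlap between genotypes. Microglia and erythroid markers summed to no more than 52.2 and 16.0 CPM in any library. The part of RNA from these tissues in the results was not tested.

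The promoter sequence of Ctu1 is shown because Ctu1 was the member that was low in the CKO and because it holds a match to the element known for Ronin. RefSeq promoter windows, from 250 bases before the annotated start site to 50 bases after it in build GRCm38.p6, were searched on both strands for ACTACA, then 2 bases of any kind, then TCCCA, the core of the Ronin element described in mouse embryonic stem cells. The Ctu1 window lies at chr7:43671781-43672080 on the plus strand. Capitals mark the match, which reads on the strand opposite to the gene.
Ctu1: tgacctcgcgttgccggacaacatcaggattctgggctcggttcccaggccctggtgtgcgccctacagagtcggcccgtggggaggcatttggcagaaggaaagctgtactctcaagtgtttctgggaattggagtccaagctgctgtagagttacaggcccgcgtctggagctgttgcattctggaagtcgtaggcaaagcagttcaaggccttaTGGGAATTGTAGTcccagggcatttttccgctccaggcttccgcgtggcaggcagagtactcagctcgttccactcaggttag

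The match in Ctu1 began 33 bases before the annotated start site. A further stretch of the window, TGGGAATTGGAGT, 126 bases before the start site and on the same strand as the first, differed from the motif at 1 of its 11 fixed bases. Of the 8 enzymes, 6 had a promoter window in the RefSeq table. The motif was found in 1 of these 6, Ctu1, and was not found in the windows of Ctu2, Urm1, Mocs3, Elp4 and Alkbh8. Of 11472 tested genes with a window, 414, or 3.61%, held it. Letters that match are a description of the sequence, and no binding was measured.

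Ctu1, which encodes the catalytic subunit of the thiolation complex, was low in every CKO library. It had 121, 105 and 75 reads in CKO replicates 1 to 3, against 564, 804 and 648 reads in control replicates 1 to 3. These correspond to 4.19, 3.92 and 3.07 CPM in the CKO and 22.1, 35.1 and 24.7 CPM in the controls. The highest CKO library lay far under the lowest control library. The mean was 3.73 ± 0.586 CPM in the CKO and 27.3 ± 6.85 CPM in the controls (SD, n = 3 each), a log2 fold change of -2.87 ± 0.24 (SE of the edgeR fit) and 13.7% of the control level. In bulk RNA, fewer cells of a type and less RNA per cell cannot be told apart.

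The fold change of Ctu1 stayed close to its value whichever library was left out, with log2 values between -3.00 and -2.63. Ctu1 was at 4.19, 3.92 and 3.07 CPM in CKO replicates 1 to 3, where the lens markers summed to 8265, 64.3 and 538 CPM. The part of lens RNA in the level of Ctu1 was not tested.

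**Figure D1:**
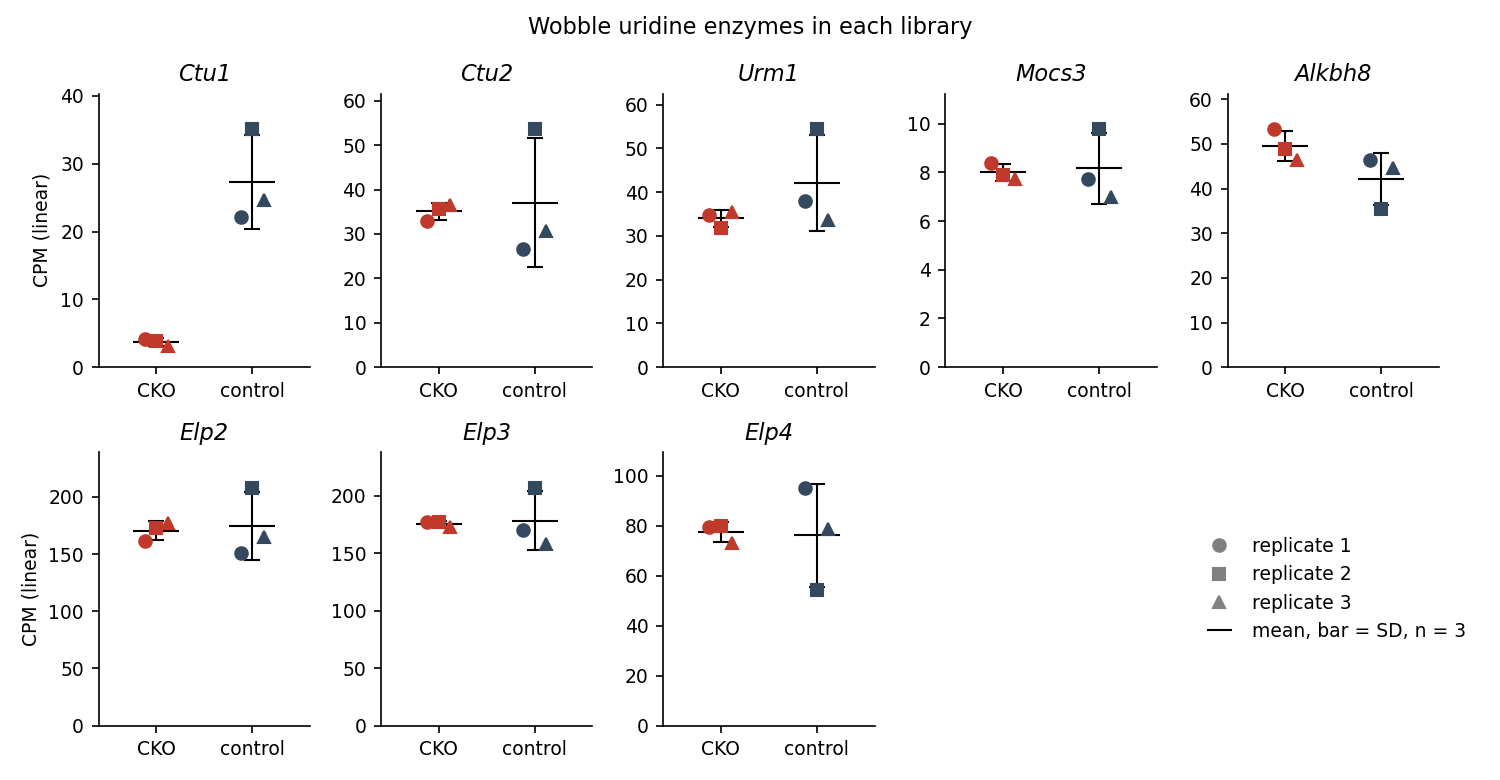
Level of each enzyme gene in CPM on a linear axis in the 3 CKO and 3 control libraries, with each library as a symbol and the mean and SD in black (n = 3). Ctu1 lies at 3.07 to 4.19 CPM in the CKO and at 22.1 to 35.1 CPM in the controls, while for Ctu2, Urm1, Mocs3 and the Elongator genes the CKO points fall within or across the range of the controls.

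Ctu2, the partner of Ctu1 in the thiolation complex, did not share this loss. It had 33.0, 35.6 and 36.6 CPM in CKO replicates 1 to 3, against 26.7, 53.6 and 30.7 CPM in control replicates 1 to 3. The CKO libraries lay between the lowest and the highest control, and the log2 fold change was -0.08 ± 0.26. The ratio of reads of both genes within a library does not depend on how libraries are scaled. There were 127, 110 and 83.9 Ctu1 reads per 1000 Ctu2 reads in CKO replicates 1 to 3, against 831, 655 and 804 in control replicates 1 to 3, and the genotypes did not overlap in this ratio.

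The genes that supply sulfur to the complex overlapped between genotypes. Urm1, the ubiquitin-like sulfur carrier, had 34.8, 31.8 and 35.4 CPM in CKO replicates 1 to 3, against 38.0, 54.4 and 33.6 CPM in control replicates 1 to 3. Control replicate 2 was the highest library, and the log2 fold change of -0.30 ± 0.20 shrank to -0.06 without control replicate 2. Mocs3, the enzyme that activates Urm1 and also serves molybdenum cofactor synthesis, had 8.38, 7.88 and 7.73 CPM in CKO replicates 1 to 3, against 7.73, 9.77 and 6.97 CPM in control replicates 1 to 3, with a log2 fold change of -0.03 ± 0.19. Its CKO libraries lay inside the range of the controls.

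The 3 Elongator genes were at like levels in both genotypes. Summed over Elp2, Elp3 and Elp4, the level was 418, 430 and 423 CPM in CKO replicates 1 to 3, against 417, 469 and 402 CPM in control replicates 1 to 3. The CKO libraries again lay between the lowest and the highest control.

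Elp3, the catalytic subunit, had 177, 177 and 173 CPM in CKO replicates 1 to 3, against 170, 207 and 158 CPM in control replicates 1 to 3, and a log2 fold change of -0.02 ± 0.14. Control replicate 2 was the highest library and the CKO libraries lay close together.

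Elp2, a WD-repeat subunit in the core of the complex with Elp3, had 161, 173 and 177 CPM in CKO replicates 1 to 3, against 151, 208 and 165 CPM in control replicates 1 to 3, a log2 fold change of -0.04 ± 0.15. Elp4, a subunit of the ring-shaped subcomplex that binds tRNA, had 79.7, 79.9 and 73.1 CPM in CKO replicates 1 to 3, against 95.3, 54.4 and 78.9 CPM in control replicates 1 to 3, a log2 fold change of 0.03 ± 0.21. Elp4 differed from the other Elongator members in having its lowest level in control replicate 2.

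Alkbh8, the methyltransferase that acts after Elongator, was the other member whose genotypes did not overlap, by a narrow margin. It had 53.3, 48.8 and 46.5 CPM in CKO replicates 1 to 3, against 46.3, 35.4 and 44.5 CPM in control replicates 1 to 3, so that the lowest CKO library and the highest control library were nearly equal. The log2 fold change was 0.24 ± 0.15, and 0.14 without control replicate 2.

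Counted together, 1 of the 8 enzymes, Ctu1, was among the 131 genes called at an adjusted p under 0.05, where 0.897% of all tested genes were called. The genotypes did not overlap in 2 of the 8, Ctu1 and Alkbh8, where the genotypes did not overlap in 12.6% of the genes tested. Since the enzymes were chosen with the loss of Ctu1 known, neither count is a result about the group, and the call of Ctu1 is no test of it. The 7 other enzymes had log2 fold changes between -0.30 and 0.24 with a median of -0.03, the same median as over all 14609 genes, of which the 10th and 90th percentiles lay at -0.44 and 0.27.

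The spread of these 7 genes came mostly from the controls. Their SD was between 1.26% and 7.03% of the mean in the CKO and between 13.8% and 39.3% in the controls. Control replicate 2 was the highest control for 6 of the 8 enzymes and the lowest for 2, Elp4 and Alkbh8. The sum of 9 periocular mesenchyme markers was also highest in that library. They summed to 61.9, 52.6 and 74.8 CPM in CKO replicates 1 to 3, against 72.1, 185 and 76.6 CPM in control replicates 1 to 3. Most of the sum in control replicate 2 was Col6a1 and Col1a2, at 110 and 64.0 CPM. Not every marker followed, with Col3a1 at 2.05 CPM in that library and 3.57 CPM in control replicate 1. The part of these markers in the spread was not tested. Without that library the sign of the log2 fold change turned for 5 of the 7 (Ctu2, Mocs3, Elp2, Elp3 and Elp4), and the values ranged from -0.15 to 0.30. No direction is therefore given for these 5.

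The remaining genes of cytosolic wobble uridine modification were taken from a list of 9 and were tested. None of them passed edgeR's quasi-likelihood test with Benjamini-Hochberg adjustment over all genes, 2 had an unadjusted p under 0.05, and DESeq2 and limma-voom called 0. Of the 9 log2 fold changes 8 were positive, with a median of 0.11. Elp6, a subunit of the same ring as Elp4, had the highest value of the list. It had 56.1, 54.4 and 57.7 CPM in CKO replicates 1 to 3, against 26.4, 49.1 and 18.8 CPM in control replicates 1 to 3.

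The span of Elp6 overlaps a pseudogene in RefSeq, whose reads could not be separated. All CKO libraries of Elp6 lay above all controls, with control replicate 2 close to the CKO. The log2 fold change was 0.83 ± 0.32 (edgeR adjusted p = 0.653), and 1.32 without control replicate 2 (edgeR adjusted p = 0.0152). Elp5, the remaining subunit of the ring, had 65.9 ± 6.61 CPM in the CKO and 59.6 ± 13.7 CPM in the controls (SD, n = 3 each, edgeR adjusted p = 0.948). Reads of Elp6 per 100 reads of Elp5 were 76.6, 84.6 and 95.6 in CKO replicates 1 to 3, against 35.5, 104 and 33.1 in control replicates 1 to 3, so that control replicate 2 lay above every CKO library in this ratio.

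**Figure D2:**
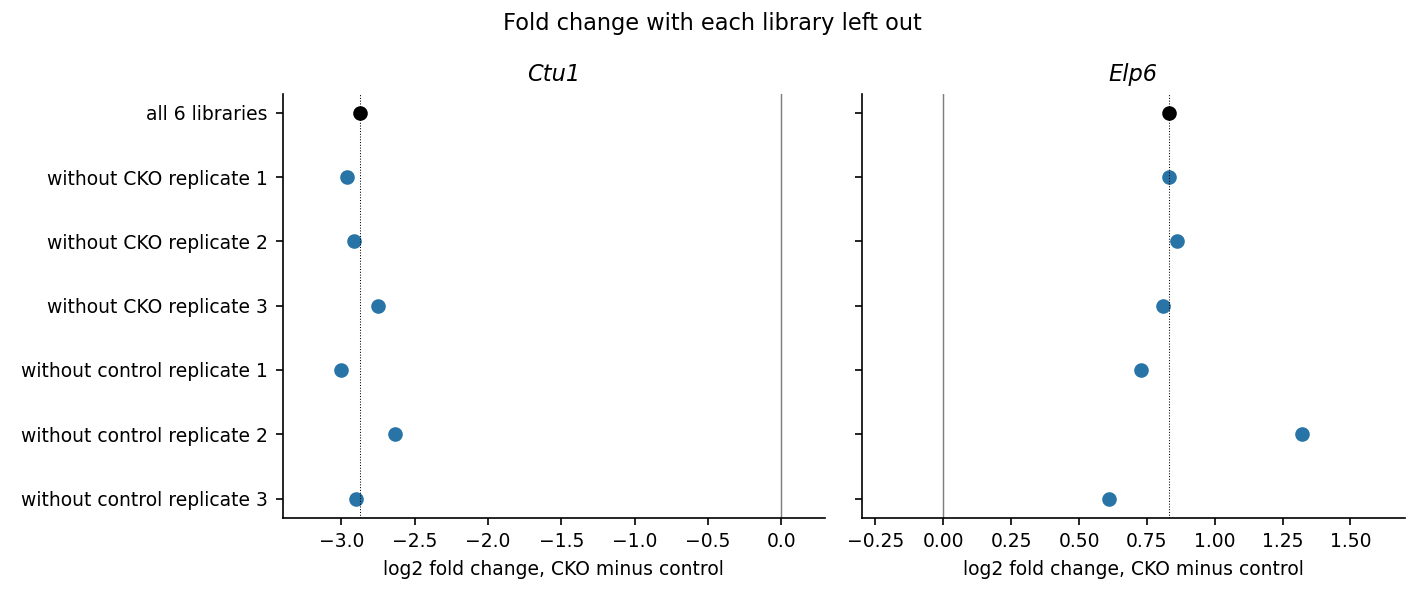
Log2 fold change (CKO minus control) of Ctu1 and Elp6 with all 6 libraries and with each library left out in turn. Ctu1 stays between -3.00 and -2.63, while Elp6 moves between 0.61 and 1.32 and is highest without control replicate 2.

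Factors that assist Elongator had like levels in both genotypes. Kti12, which interacts with Elongator in yeast, was at 25.1 ± 0.857 CPM in the CKO and 23.6 ± 3.35 CPM in the controls. Dph3, known as Kti11 in yeast, where it acts in wobble uridine modification and in diphthamide synthesis, was at 52.7 ± 2.86 CPM in the CKO and 50.1 ± 13.3 CPM in the controls. Trmt112, the cofactor of Alkbh8 and other methyltransferases, was at 24.1 ± 1.37 CPM in the CKO and 23.9 ± 3.26 CPM in the controls. The Alkbh8 relative Trmt9b, listed as 6430573F11Rik, was at 3.96 ± 0.135 CPM in the CKO and 3.61 ± 0.503 CPM in the controls.

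Genes that bring sulfur into the pathway were also measured. Nfs1, the cysteine desulfurase, had 31.6, 30.0 and 32.8 CPM in CKO replicates 1 to 3, against 28.3, 18.9 and 25.3 CPM in control replicates 1 to 3 (log2 fold change 0.38 ± 0.18, edgeR adjusted p = 0.807). Its genotypes did not overlap. Its partner Lyrm4 was at 10.5 ± 0.914 CPM in the CKO and 9.76 ± 3.54 CPM in the controls. Mpst, a sulfurtransferase that can pass sulfur to Mocs3, was at 23.6 ± 2.62 CPM in the CKO and 34.5 ± 9.78 CPM in the controls (log2 fold change -0.55 ± 0.22, edgeR adjusted p = 0.709), and its genotypes overlapped.

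Enzymes of other tRNA modifications were examined in further lists. Of 3 mitochondrial wobble uridine genes (Mto1, Gtpbp3 and Trmu) none passed edgeR's test, 0 had an unadjusted p under 0.05 and DESeq2 and limma-voom called 0. Gtpbp3 had 26.6, 31.9 and 33.0 CPM in CKO replicates 1 to 3, against 24.3, 32.3 and 27.9 CPM in control replicates 1 to 3. Of 28 genes of other anticodon loop modifications, edgeR called 1 higher and 0 lower, where 0.897% of all tested genes were called. Their log2 fold changes were positive for 17 and negative for 11, with a median of 0.02. Of the 28, 3 had an unadjusted p under 0.05, and DESeq2 and limma-voom called 1 each. The genotypes did not overlap in 4, against 12.6% of all genes tested. The gene called by edgeR was Ftsj1, which encodes a ribose methyltransferase of the anticodon loop. It had 58.0, 54.2 and 56.6 CPM in CKO replicates 1 to 3, against 34.8, 30.2 and 28.6 CPM in control replicates 1 to 3.

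The libraries of Ftsj1 were separate by genotype, and the log2 fold change was 0.85 ± 0.14 (edgeR adjusted p = 0.0381). This call was lost when any CKO library was left out (edgeR adjusted p between 0.214 and 0.270) and without control replicate 3 (adjusted p = 0.136).

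Of 24 genes that modify the body of the tRNA, edgeR called 1 higher and 1 lower, where 0.897% of all tested genes were called. The median log2 fold change was 0.10. The genotypes did not overlap in 5 of the 24, against 12.6% of all genes tested. In this list 4 had an unadjusted p under 0.05, limma-voom called 2 and DESeq2 called 3. Trmt10a, which methylates a guanosine next to the acceptor stem of tRNA, had 60.0, 56.4 and 57.1 CPM in CKO replicates 1 to 3, against 22.2, 14.1 and 15.5 CPM in control replicates 1 to 3. It rose 3.34-fold (log2 fold change 1.74 ± 0.19, edgeR adjusted p = 0.00942), and the call was lost without CKO replicate 1 (edgeR adjusted p = 0.0583), CKO replicate 3 (0.0648) or control replicate 3 (0.0897). Trub1, a pseudouridine synthase of the T loop, had 10.7, 10.3 and 8.75 CPM in CKO replicates 1 to 3, against 25.1, 29.8 and 31.6 CPM in control replicates 1 to 3. It fell by 1.54 on the log2 scale (SE 0.17, edgeR adjusted p = 0.00791), and that call was lost without CKO replicate 1 (edgeR adjusted p = 0.0563), CKO replicate 2 (0.0533), CKO replicate 3 (0.0744) or control replicate 3 (0.0625). In both genes all CKO libraries were separate from all controls, with Trmt10a high and Trub1 low in the CKO. The additional gene called by DESeq2 was Pus7, a pseudouridine synthase, singled out for that reason after its values were seen. It had 42.3, 51.0 and 56.0 CPM in CKO replicates 1 to 3, against 31.6, 25.5 and 34.5 CPM in control replicates 1 to 3 (log2 fold change 0.70 ± 0.17, edgeR adjusted p = 0.223, DESeq2 adjusted p = 0.0190).

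**Figure D3:**
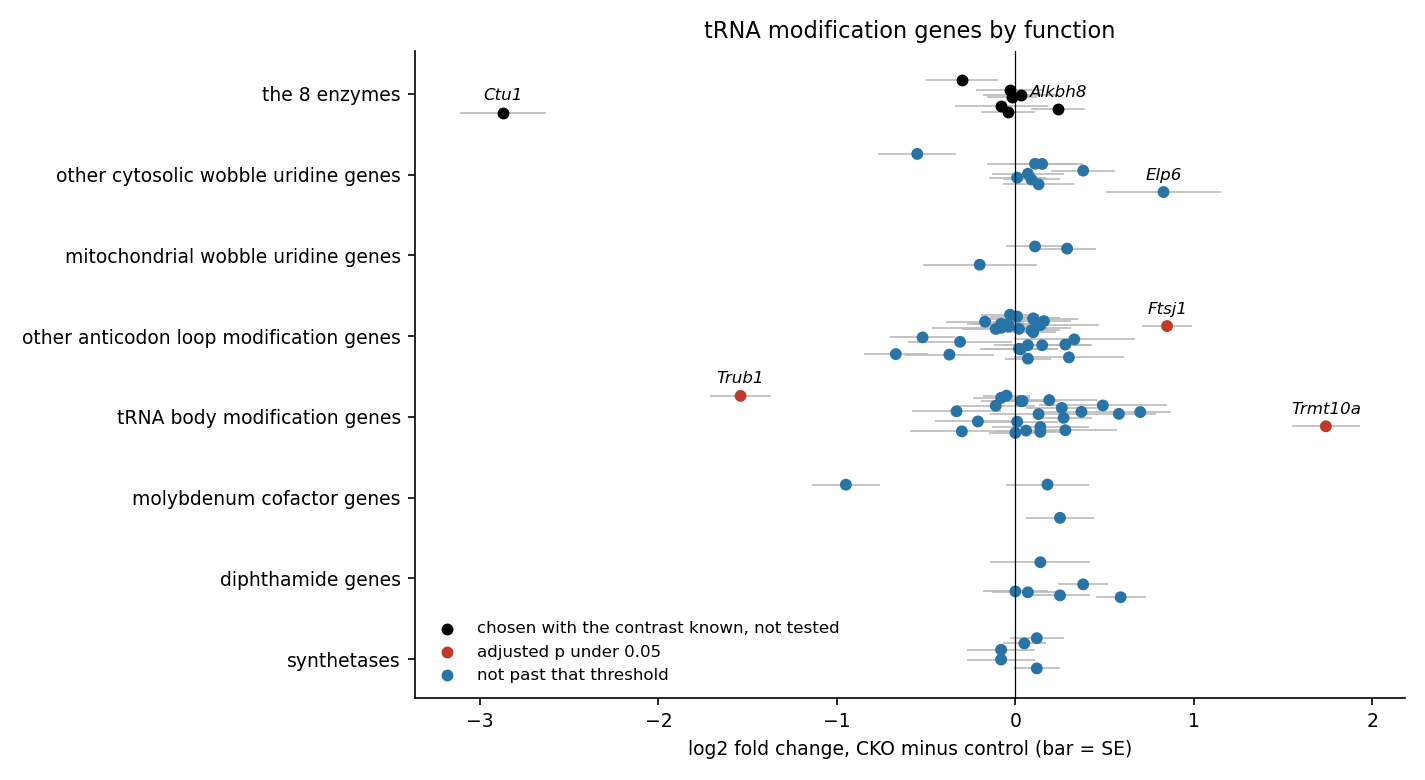
Log2 fold change (CKO minus control) with its SE for the 8 enzymes in black and for the tested genes of each list in colour, red where the adjusted p was under 0.05. Ctu1 lies at -2.87, the other 7 enzymes between -0.30 and 0.24, and the called genes of the lists are Ftsj1 at 0.85, Trmt10a at 1.74 and Trub1 at -1.54.

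Pathways that share a component with the enzymes were included too. None of the 3 tested molybdenum cofactor genes, which use Mocs3, passed edgeR's test, where 1 had an unadjusted p under 0.05, DESeq2 called 1 and limma-voom 0. The gene that DESeq2 called was Mocs1, singled out for that reason after its values were seen. It stood at 7.24 ± 0.905 CPM in the CKO and 14.0 ± 2.15 CPM in the controls (log2 fold change -0.95 ± 0.19, edgeR adjusted p = 0.0923). The list was led in abundance by Gphn, with 49.3 ± 1.25 CPM in the CKO and 41.5 ± 9.76 CPM in the controls.

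None of the 6 diphthamide genes, which share Dph3, passed edgeR's test, where 2 had an unadjusted p under 0.05, DESeq2 called 1 and limma-voom 0. Log2 fold changes of the 6 lay between 0.00 and 0.59, with a median of 0.19. The genotypes did not overlap in 3 of the 6, against 12.6% of all genes tested. The gene called by DESeq2, Dph2, likewise singled out afterwards, stood at 38.2 ± 1.53 CPM in the CKO and 25.3 ± 2.79 CPM in the controls (log2 fold change 0.59 ± 0.14, edgeR adjusted p = 0.199). Without control replicate 2 edgeR called it as well (adjusted p = 0.0219). None of 5 listed synthetases (Kars, Eprs, Qars, Rars and Gars) of tRNAs with a modified wobble uridine passed. Of these, 0 had an unadjusted p under 0.05 and DESeq2 and limma-voom called 0. Eprs, which charges tRNAs for glutamate and proline, was at 312 ± 14.0 CPM in the CKO and 330 ± 86.1 CPM in the controls.

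Of the 3 genes called in these lists, Trub1 held the motif in its promoter window and Ftsj1 and Trmt10a did not. Over all 78 list genes, 2 of 71 with a window held it, or 2.82%, the other one being Qtrt2 (listed as Qtrtd1), at a log2 fold change of 0.07. The matches of Ctu1 and Trub1 are set side by side because their flanks also resemble each other. Each is read in the direction of the motif, with the match in capitals and 8 bases on either side, at chr7:43671990-43672018 on the minus strand for Ctu1 and chr19:57452866-57452894 on the plus strand for Trub1, both in build GRCm38.p6.
Ctu1: gccctgggACTACAATTCCCAtaaggcct
Trub1: gcctatggACTACAATTCCCAgaaggcct

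Both matches lay close to the annotated start site, beginning 33 bases before it in Ctu1 and 32 bases before it in Trub1, on opposite strands relative to their genes. Among the 103 genes called lower in the CKO, Ctu1 and Trub1 included, 88 had a window and 60 of these, or 68.2%, held the motif. Among the 28 genes called higher, 6 of 21 held it, or 28.6%. With a shorter form that ends in TCCC the shares were 75.0% of genes called lower, 38.1% of genes called higher and 4.38% of all tested genes. A second stretch with at most 1 of the 11 fixed bases changed, as in Ctu1, was present in 29.5% of the genes called lower and in 1.34% of all tested genes.

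**Figure D4:**
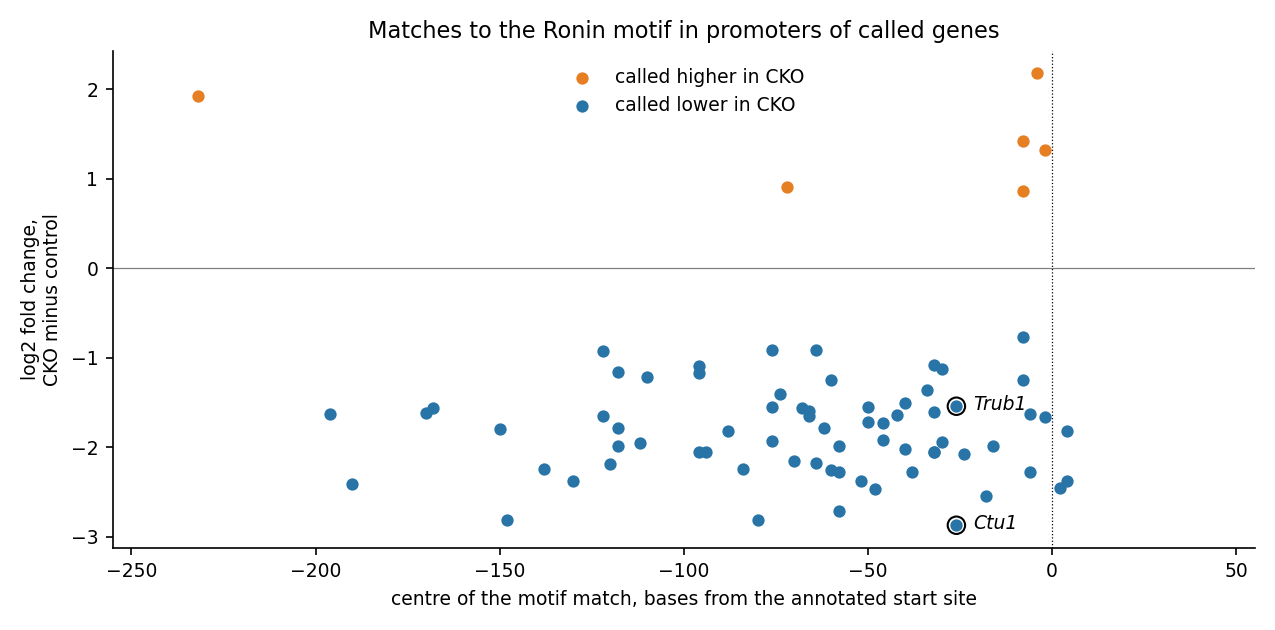
Position of each match to the motif relative to the annotated start site, in bases, against the log2 fold change (CKO minus control) of its gene, for genes called lower (blue) and called higher (orange). Of 69 matches in 60 genes called lower, 66 were centred before the start site, at a median of 60 bases. Those of Ctu1 and Trub1, circled, lay at nearly the same distance, about 26 bases after rounding.

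The genes with a profile most like that of Ctu1 over the 6 libraries were picked by the root mean square difference of log2 CPM, each gene centred on its own mean. This comparison over 12654 genes uses the same contrast and carries no test. Thap11 differed by 0.20, against a median of 1.45 over all genes compared and values of 1.29 to 1.57 for the other 7 enzymes. The nearest other genes were Clpb, a mitochondrial disaggregase, at 0.26, Ccdc163 at 0.29, Dnajc18, which encodes a DNAJ-domain protein, at 0.30, Mrpl24, a mitochondrial ribosomal protein gene, at 0.30 and Iqgap3, a scaffold protein gene of proliferating cells, at 0.31.

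Clpb had 9.73, 8.51 and 6.75 CPM in CKO replicates 1 to 3, against 38.8, 56.4 and 34.7 CPM in control replicates 1 to 3. Like Ctu1, it was lowest in CKO replicate 3 and highest in control replicate 2. Of these 5 genes 4 had a promoter window, and those of Ccdc163 and Mrpl24 held the motif. They are shown, in the direction of the motif with the match in capitals, to set them against Ctu1. Ccdc163 is at chr4:116708390-116708418 and Mrpl24 at chr3:87919399-87919427, both on the plus strand of GRCm38.p6.
Ccdc163: agggctggACTACATTTCCCAagaagtaa
Mrpl24: ctctgtgaACTACAACTCCCAgtggtctc

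**Figure D5:**
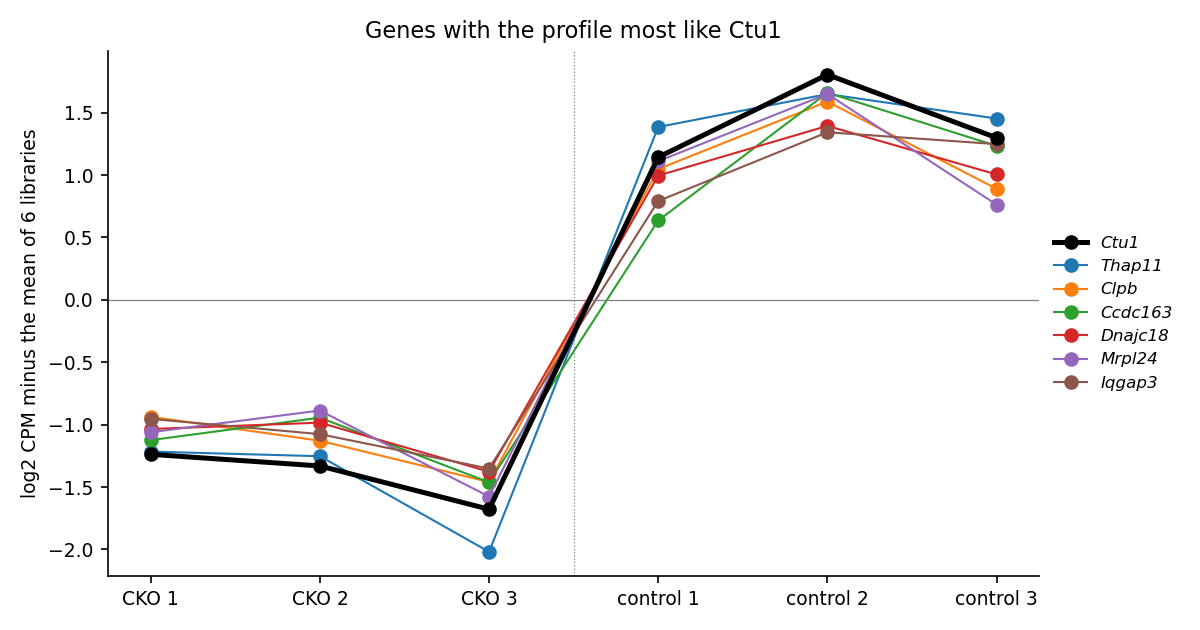
Log2 CPM of Ctu1 (thick black line), Thap11 and the 5 genes with the most similar profile in each library, minus the mean of each gene over the 6 libraries. All lie below their mean in the 3 CKO libraries, lowest in replicate 3, and above it in the 3 controls.

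Genes next to the enzymes were checked in the order of RefSeq genes on GRCm38.p6, since a neighbour's reads can be counted with a gene. Next to Ctu1 there was almost no signal. Siglece, whose span overlaps that of Ctu1, had 1, 2 and 1 reads in CKO replicates 1 to 3, against 3, 9 and 4 reads in control replicates 1 to 3. The nearest protein-coding genes on either side, Ceacam18 and Klk14, had no more than 2 reads in any library. Of 15 nearest neighbours of the 8 enzymes, 9 were tested and none passed edgeR's test, 0 had an unadjusted p under 0.05 and DESeq2 and limma-voom called 0, with log2 fold changes between -0.31 and 0.37.

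Ctu2 overlaps Rnf166 and Piezo1, and Alkbh8 overlaps a small nucleolar RNA gene. Elp4 overlaps Pax6, a retinal progenitor gene, in this annotation. Pax6 had between 22561 and 24295 reads in the CKO and between 17784 and 22947 reads in the controls. Of 3 overlapping genes tested (Rnf166, Piezo1 and Pax6), none passed edgeR's test, 0 had an unadjusted p under 0.05 and DESeq2 and limma-voom called 0. No source used here states the strand setting of the counting, and for overlapping genes on opposite strands the origin of a read cannot be told apart.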

How the data were processed

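Retinal RNA was poly-A selected and sequenced, per the labels' protocols. The authors deposited raw read counts per gene symbol for 6 libraries. The tools named in the submitters' processing notes are HTSeq 0.5.4p3, BWA 0.7.6a-r433 and DESeq 2.13, with build mm9; roles, annotation and strand setting are not stated there. At the end of the table, 3 merge-conflict lines, 1 blank line and 1 repeated gene row were dropped. No row lacked a gene name.

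The counts went into edgeR 4.0.16 (R 4.3.3) with filterByExpr (minimum count 10, 14609 genes kept), TMM scaling, and the quasi-likelihood F test (glmQLFit, glmQLFTest) with genotype as the only term, fitted on all 6 libraries. P-values were Benjamini-Hochberg adjusted across the 14609 genes (threshold 0.05), and each SE was derived from the log2 fold change and its F statistic. Code was checked on simulated data. No libraries agreed within sampling noise (lowest chi-square per degree of freedom 5.77).

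The members and lists were chosen with earlier results of these data known. A further member and 1 progenitor marker are not reported here. Named genes were the 8 enzymes, Thap11, the list of other cytosolic wobble uridine genes, called genes of each other list or else its most abundant gene, neighbours of Ctu1, and the 5 genes most like Ctu1 whose mean log2 CPM was 1 or more. Promoter windows and gene order are RefSeq's on GRCm38.p6, and coordinates are of that build, not that of the counts; 11472 tested genes had a window, matched by symbol or by a synonym of 1 gene. The motif was chosen after the data were seen.

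Alternatives were DESeq2 1.42.0 size factors, library size alone, DESeq2's Wald test, limma-voom (limma 3.58.1), no filter, at least 1 CPM in 3 libraries, the replicate number as a block, 0.01 as the threshold, and each library left out in turn.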

Additional observations from a re-analysis of the deposited data

How the results depend on the processing

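Over 13 alternatives the Ctu1 log2 fold change, -2.87, moved by less than 1 SD between libraries and kept its sign, and so did those of Urm1 and Alkbh8, while 5 other enzymes changed sign under 1 to 3 alternatives each. Genes called in the CKO, 28 higher and 103 lower, became 117 and 207 with DESeq2's Wald test and 8 and 31 at an adjusted p threshold of 0.01, and ranged from 6 to 72 higher and from 10 to 147 lower when a library was left out. Other cytosolic wobble uridine genes called ranged from 0 to 1 (Elp6, without control replicate 2), other anticodon loop genes from 0 to 1, tRNA body genes from 0 to 2 and diphthamide genes from 0 to 1 when a library was left out. DESeq2's Wald test called 1 molybdenum cofactor gene, 1 diphthamide gene and 3 tRNA body genes, against 2 tRNA body genes with edgeR. The cause of these changes was not tested, except that leaving out a library leaves fewer samples. Mitochondrial wobble uridine genes, synthetases and nearest neighbours had 0 calls under all alternatives.

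Replicate numbers are shared between genotypes. Deviations of same-numbered libraries had correlations of 0.336, 0.107 and -0.008 for replicates 1 to 3, and those of unlike numbers lay between -0.253 and 0.201. The value of replicate 1 was the highest of any pair. With 3 libraries per genotype, these values cannot tell whether the numbers pair the samples. With the replicate number as a block, 0 anticodon loop genes were called (Ftsj1 adjusted p = 0.0658, edgeR), and Ctu1 was at -2.85. In the CKO libraries Ctu1 had the fewest reads of the enzymes, no fewer than 75 in any library, which bounds the precision of its level there. In the controls Mocs3 had the fewest.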
